A study of Brassica rapa with 30 samples.

Results

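The comparison described here asks whether the passage from acute to prolonged cold, from 1 to 20 days, moved transcript levels differently in the Brassica rapa cultivars LP08 and Chiifu. It uses 12 of the 30 libraries of the series, chosen by cultivar and treatment alone. These are 3 of LP08 after 20 days of cold (LP08 V20), 3 of LP08 after 1 day (LP08 V1), 3 of Chiifu after 20 days (Chiifu V20) and 3 of Chiifu after 1 day (Chiifu V1). LP08 is labelled early flowering and Chiifu late flowering. All plants were raised in a greenhouse to an age of 3 weeks and then moved to the cold, and RNA was taken from whole plants, so the libraries average over all organs. Plants at V20 were also older than plants at V1, and the effect of cold cannot be told apart from that of age. The series' title ties early flowering of oilseed-type plants to a premature stop in the transcript of BrFLC2, and the labels do not say which cultivar carries it. Nor do they state that the 3 libraries of a group are from different plants, so every p-value refers to spread among libraries that may be technical in part.

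Plants meet cold in stages. The first hours and days bring a fast acclimation response, in which CBF transcription factors switch on genes for protective proteins, sugars and other solutes. Weeks of cold bring vernalization, known best from Arabidopsis, in which the floral repressor FLC is silenced step by step through the cold-induced protein VIN3 and Polycomb proteins, so that the plant becomes able to flower.

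The deposited tables list genes by ID, and a RefSeq table of 51589 genes paired 1 of the 42186 IDs with a name, of a gene that was not among those tested. Features are therefore given by ID, with no name, role, position or sequence, and any of them may be one of the genes named above. The 12 libraries held 18292424 to 26595834 counts on genes, and 29308 to 30402 genes had at least 1 count. Libraries of a group correlated at 0.976 to 0.991 across genes (log2 of counts scaled to library size, CPM). LP08 V1 replicate 2 stood apart in 2 measures of its reads. There 7.29% of alignments fell at several places, against 4.22 and 4.52% in the other LP08 V1 libraries, and 0.466% of its counts lay on rows beginning with ENSRNA, against at most 0.149% in the other 11 libraries. Alignments at several places were more frequent in every LP08 library than in any Chiifu library. They made up 4.22 to 7.29% in LP08 V1 and 3.83 to 4.19% in LP08 V20. In Chiifu V1 the range was 2.75 to 3.80%, and in Chiifu V20 2.67 to 3.28%. Any effect of this on the cultivar differences was not tested.

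The cultivar and the time in the cold gave the first 2 principal components of the 12 libraries, with 67.6 and 19% of the variance of log2 CPM. The third component, with 4.67%, followed the difference between the cultivars' shifts. Its scores were 19.9 to 45.7 in LP08 V20 and -36.4 to -24.8 in LP08 V1, and they were -43.1 to -21.6 in Chiifu V20 and 24 to 42.7 in Chiifu V1. The groups of each cultivar thus lay on opposite sides of 0, in the reverse order in the other cultivar, with no overlap.

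**Figure D1:**
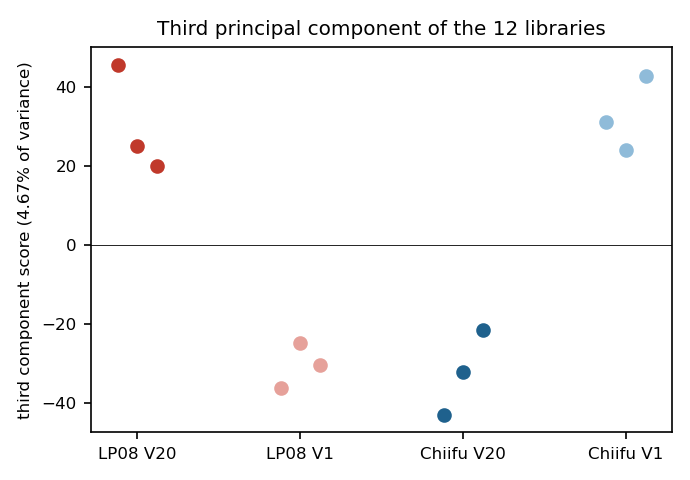
Score of each of the 12 libraries on the third principal component of log2 CPM (vertical axis, arbitrary units), 1 point per library, by group. LP08 V20 and Chiifu V1 lie above 0 and LP08 V1 and Chiifu V20 below it.

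Within each cultivar the shift was wide. In LP08, 6511 genes rose and 5742 fell between V1 and V20, or 24.1% and 21.3% of the 27000 genes tested (45.4% together). In Chiifu 6103 rose and 6223 fell, or 22.6% and 23% (45.7% together; edgeR quasi-likelihood test, Benjamini-Hochberg adjusted p below 0.05). In bulk RNA of whole plants, fewer cells of a type and less RNA per cell cannot be told apart. The cultivars share no library in these comparisons. Of the genes that rose, 3864 rose in both, which is 59.3% of the LP08 list and 63.3% of the Chiifu list, and 3708 fell in both, 64.6% and 59.6% of these lists. The log2 changes of the cultivars, taken across genes (no independent replicates), correlated at 0.615, and their SD was 0.911 in LP08 and 0.863 in Chiifu. Both cultivars thus shared much of the direction of the step from acute to prolonged cold.

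The shift itself differed between the cultivars for 2567 genes, 9.51% of those tested. This was tested as an interaction, the log2 change from V1 to V20 in LP08 minus that in Chiifu, and is called higher where the change was more positive in LP08. It was higher for 1420 genes (5.26% of those tested) and lower for 1147 (4.25%). The difference was 2-fold or more for 728 higher and 594 lower genes, 4-fold or more for 306 and 197, and 8-fold or more for 144 and 86. The median absolute interaction of the called genes was 1.02 as a log2 value, against 0.32 over all genes tested. Without Chiifu V20 replicate 2 the total was 1576 (818 higher and 758 lower), and without LP08 V20 replicate 2 it was 1687 (946 and 741). The number higher was 944 without Chiifu V1 replicate 1. With all 30 libraries sharing 1 estimate of spread the total was 1365, of which 585 were higher and 780 lower, so which direction held more genes depended on the fit. With DESeq2 size factors the split was 1245 higher and 1305 lower, and by the DESeq2 Wald test 1662 and 1800. The surplus of higher genes was also lost without Chiifu V20 replicate 1 (930 and 943) and without LP08 V1 replicate 3 (1024 and 1129).

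**Figure D2:**
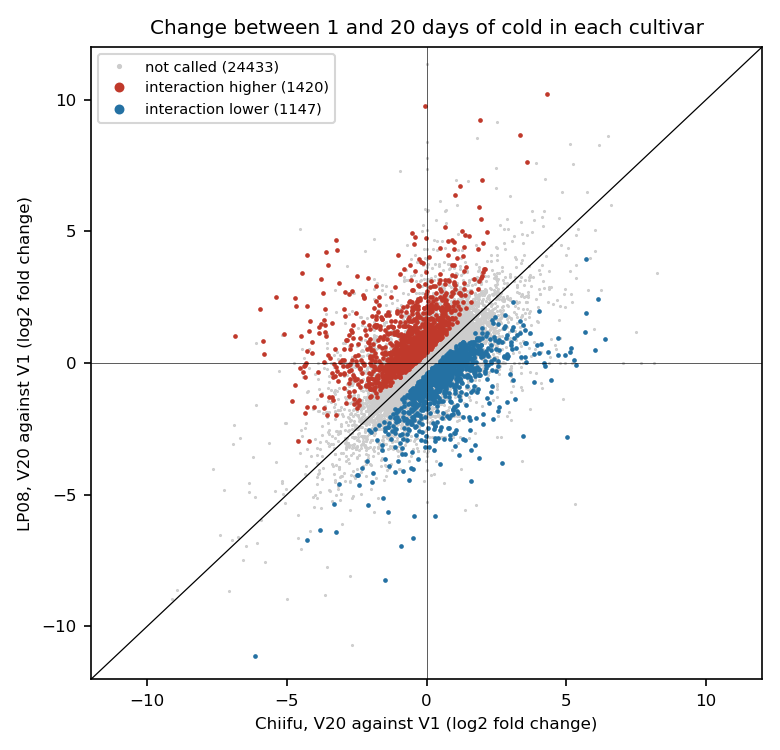
Log2 fold change from V1 to V20 in LP08 (vertical axis) against that in Chiifu (horizontal axis), 1 point per gene of 27000 tested, with the line of equal change. The 1420 genes with a higher interaction lie above the line and the 1147 with a lower one below it, on both sides of 0 on each axis.

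Among abundant genes, a lower interaction was the more frequent one. Among the 1887 genes with a mean of 100 CPM or more over the 12 libraries, the interaction was higher for 83 and lower for 196, so that 14.8% of them were called. At 10 to 100 CPM it was higher for 828 and lower for 547 of 11890 genes, at 1 to 10 CPM for 444 and 358 of 10249, and below 1 CPM for 65 and 46 of 2974. The surplus of lower calls at 100 CPM or more was present under all 18 alternative settings, at 39 to 98 higher and 114 to 355 lower genes. The opposite surplus at 10 to 100 CPM was present in 17 of the 18 and turned round with all 30 libraries in the fit. At 1 to 10 CPM lower calls exceeded higher ones in 4 of the 18, and below 1 CPM in 1. With DESeq2 size factors, the abundant genes split into 71 higher and 238 lower, and those at 10 to 100 CPM into 702 and 633.

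A change in LP08 alone was about as frequent among the interaction genes as a change in Chiifu alone, as it was over all genes tested. Over all genes, 4347 were called in LP08 alone and 4420 in Chiifu alone, and 19.5% and 19.1% of them had an interaction. Of the 2567 genes, 846 (33%) changed from V1 to V20 in LP08 without being called in Chiifu, and 845 (32.9%) did so in Chiifu without being called in LP08. A further 332 genes (12.9%) moved in opposite directions, 197 that rose in LP08 and fell in Chiifu and 135 that fell in LP08 and rose in Chiifu. Others moved the same way in both, with the larger change in LP08 for 311 genes and in Chiifu for 228. Only 5 genes were called for the interaction and in neither cultivar. Median absolute interactions were 1.47 for genes with opposite directions, 0.99 for those called in LP08 alone and 0.99 for those called in Chiifu alone. Opposite changes add up in the interaction, so the definition of that class favours a larger median. The calls within each cultivar share their libraries with the interaction, so the counts describe its genes and are no further test of it. Without Chiifu V20 replicate 2 the numbers in LP08 alone, in Chiifu alone and in opposite directions were 554, 509 and 214. Without LP08 V20 replicate 2 the number in LP08 alone was 537. Genes that moved the same way and further in LP08 numbered 161 to 206 without Chiifu V20 replicate 2 or 3, Chiifu V1 replicate 1 or 2 or LP08 V20 replicate 2. Those that moved further in Chiifu numbered 112 to 147 without replicate 2 of LP08 V20, LP08 V1 or Chiifu V20 or without Chiifu V1 replicate 1.

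The same genes can be read as a difference between the cultivars that changed with time in the cold. LP08 and Chiifu differed in 14133 genes at V20 (52.3% of those tested, 26.6% higher and 25.7% lower in LP08) and in 14103 at V1 (52.2%, 25.1% higher and 27.1% lower), so the number of genes that set the cultivars apart was nearly the same at both times. Of the 2567 interaction genes, 747 differed between the cultivars at V20 without a call at V1, and 815 at V1 without a call at V20. The difference kept its direction and was wider at V20 for 278 genes and narrower for 394. For 332 genes it turned round, 172 of which were higher in LP08 at V20 and lower in LP08 at V1, while 160 were the reverse. These classes were not counted over all genes tested, so their sizes have no background here. Without Chiifu V20 replicate 2 the numbers at V20 alone and turned round were 423 and 218, and those wider and narrower were 180 and 210. The number at V20 alone was 445 without LP08 V20 replicate 2 and 481 without Chiifu V20 replicate 1. The number wider was 174 to 179 without LP08 V20 replicate 2 or Chiifu V1 replicate 1 or 2, and that narrower was 238 to 259 without LP08 V20 replicate 2, Chiifu V1 replicate 1 or Chiifu V20 replicate 3.

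**Figure D3:**
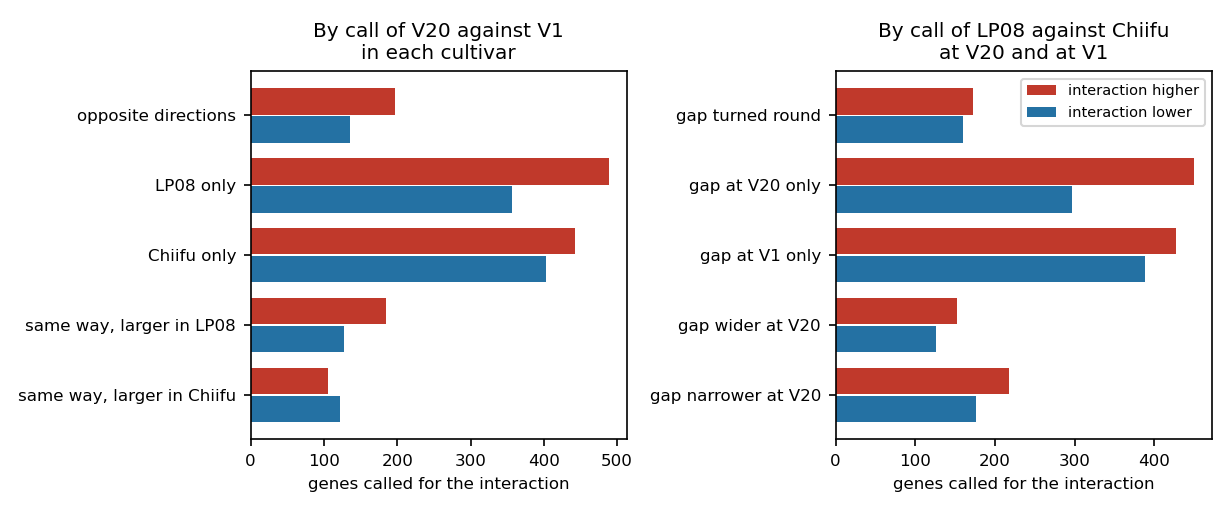
Number of interaction genes (horizontal axis) by the cultivars' own changes from V1 to V20 (left) and by the cultivar difference at V20 and V1 (right), with higher and lower interactions in separate bars. The largest groups are genes called in 1 cultivar alone (846 and 845) and those that differed at 1 time alone (747 and 815); classes of 5 genes or fewer are not drawn.

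For 1079 genes, 42% of those with an interaction, the calls set 1 of the 4 groups apart from the other 3. These are genes called in 1 cultivar alone that also differed between the cultivars at 1 time alone. LP08 V20 was the high group for 166 of them and the low group for 103. LP08 V1 was high for 133 and low for 150. Chiifu V20 was high for 107 and low for 141, and Chiifu V1 was high for 143 and low for 136. No single group of plants held most of these genes. The same patterns were not counted over all genes tested, so neither the total nor its split can be set against a background. In each of these 8 patterns the median absolute interaction was between 0.90 and 1.03 on the log2 scale. A missing call does not show that the other 3 groups were alike. The classes that form these patterns changed in size when single libraries were left out, as given above, and no such range is given for the patterns themselves.

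The V40 libraries, which took no part in the interaction, show what became of these genes after another 20 days. Most genes set apart at V20 kept the sign of the cultivar difference. Among the 166 genes with LP08 V20 high, the median level in LP08 minus that in Chiifu was 0.84 on the log2 CPM scale at V20 and 0.54 at V40, and 92.2% of them were higher in LP08 at V40. The 141 genes with Chiifu V20 low had a median difference of 0.88 at V20 and 0.54 at V40, with 90.8% higher in LP08. Of the 103 genes with LP08 V20 low, 5.83% were higher in LP08 at V40, and of the 107 with Chiifu V20 high 5.61%. Over all genes tested the share was 49.5% at V40. That is no matched background, since these sets were chosen for a called cultivar difference at V20. Cultivar differences lasted widely, with a correlation of 0.875 between V1 and V20 across all genes tested (no independent replicates). Choice at V20 also favours large differences there, so part of the drop to V40 may come from the choice.

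Genes set apart at V1 had smaller differences at V40. They were chosen for a called difference at V1 and no call at V20, so part of this may come from the choice. The 133 genes with LP08 V1 high had a median cultivar difference of 1.02 at V1, -0.10 at V20 and 0.04 at V40, and 54.9% were higher in LP08 at V40. The 136 genes with Chiifu V1 low went through 0.88, -0.14 and 0.03, with 52.2% higher in LP08 at V40. In the 150 genes with LP08 V1 low and the 143 with Chiifu V1 high, a median difference of -0.19 and -0.21 was measured at V40, after -0.83 and -0.93 at V1. Of these, 30.7% and 30.8% were higher in LP08 at V40, so that most kept the sign of V1. Before any cold (NV) the median difference was 0.21, 0.25, -0.18 and -0.27 in these 4 sets in the order given, against 0.06 over all genes. Of the sets apart at V20, it was 0.25 with LP08 V20 high, -0.15 with LP08 V20 low, 0.48 with Chiifu V20 low and -0.15 with Chiifu V20 high, so the NV medians too had the sign of V20 there. The levels at V1 and V20 chose these genes and are no evidence of their own, while NV and V40 took no part in the choice.

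Over all 1420 higher genes, the median cultivar difference was -0.02 at NV, -0.55 at V1, 0.39 at V20, 0.16 at V40 and -0.14 after 40 days of cold and 10 days of warmth (V40T10). Over the 1147 lower genes it was 0.13, 0.61, -0.45, -0.22 and 0.29 at these treatments. At V40 58.7% of the higher genes and 37.6% of the lower genes stood higher in LP08. The median of each list at V40 thus had its sign of V20 and was smaller.

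**Figure D4:**
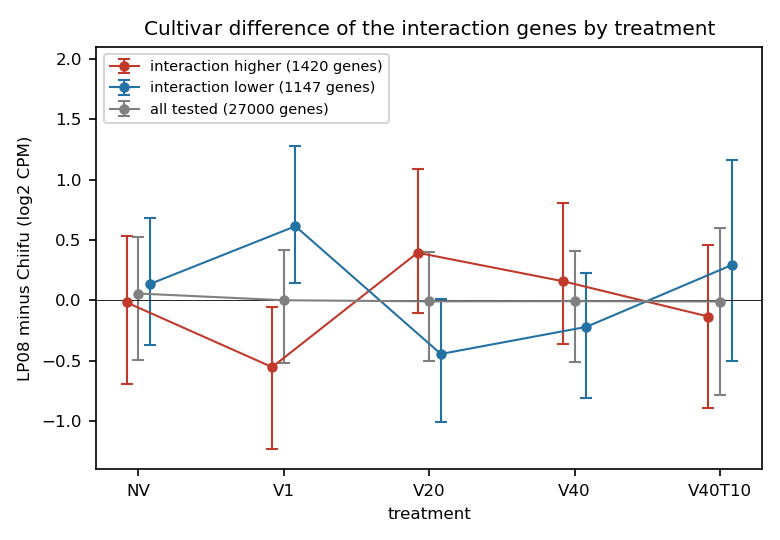
Level in LP08 minus level in Chiifu (log2 CPM, vertical axis) by treatment, as the median over genes with the 25th and 75th percentiles, for the 1420 genes with a higher interaction, the 1147 with a lower one and all 27000 tested. The medians of both lists cross between V1 and V20 and keep their V20 sign at V40; V1 and V20 chose the lists.

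A second interaction, formed from libraries that the first did not use, took the change from NV to V40 in LP08 minus that in Chiifu. It was positive for 930 of the 1407 higher genes measured there (66.1%) and negative for 740 of the 1133 lower genes (65.3%), while over all genes tested in both fits 53.1% were positive and 46.9% negative. The medians were 0.30 and -0.25 on the log2 scale, against 0.05 over all. It was called, in the same direction, for 179 of the higher genes (12.7%) and 86 of the lower (7.59%). The background was 2.61% of 27285 genes called higher and 1.49% called lower. In the opposite direction 12 and 8 were called. This second interaction called 1119 genes in all (4.1% of those tested), and that total was unstable. It was 467 to 640 when any 1 of the LP08 NV, LP08 V40 or Chiifu V40 libraries was left out in turn, and 2382 and 2552 without Chiifu NV replicates 1 and 3. The numbers of matching signs moved less, to 866 to 1002 for the higher genes and 710 to 842 for the lower over these 12 omissions. The Chiifu NV libraries differed more among themselves than those of any other group. The chi-square per degree of freedom of their counts was 55 to 127 between pairs, against 7.01 to 26.5 within the groups of the first interaction. These libraries also enter every NV cultivar difference given above.

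Fewer genes were called over the next step. Between V20 and V40 the cultivars' changes differed for 108 of 26928 genes, 0.401% of those tested, 36 higher (0.134%) and 72 lower (0.267%). The corresponding share between V1 and V20 was 9.51%. The V20 to V40 count was 10 to 67 when any 1 library was left out other than LP08 V40 replicate 3 or LP08 V20 replicate 3. The lowest, 10, came without Chiifu V20 replicate 2, and without LP08 V20 replicate 3 it was 210. Of the 26928 genes, 3396 had an unadjusted p below 0.05, against 6822 of 27000 for V1 to V20. These comparisons share the V20 libraries, and the difference between their counts was not tested.

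Single features show the patterns. Of the 19 described, 13 were taken by size of the interaction in mean log2 CPM with a prior count of 2, overall and within classes, from the 1155 genes (610 higher and 545 lower) that reached 5 CPM in a group and stayed called when any 1 of the 12 libraries was left out. The other 6, marked as such, were picked with their values known, for the smallest p or for a level of 100 CPM or more. The prior count shrinks features with few counts, so that ranking differs from the order of the fitted interactions given below. All were chosen for their difference in response, so their size is a description of the extremes.

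**Figure D5:**
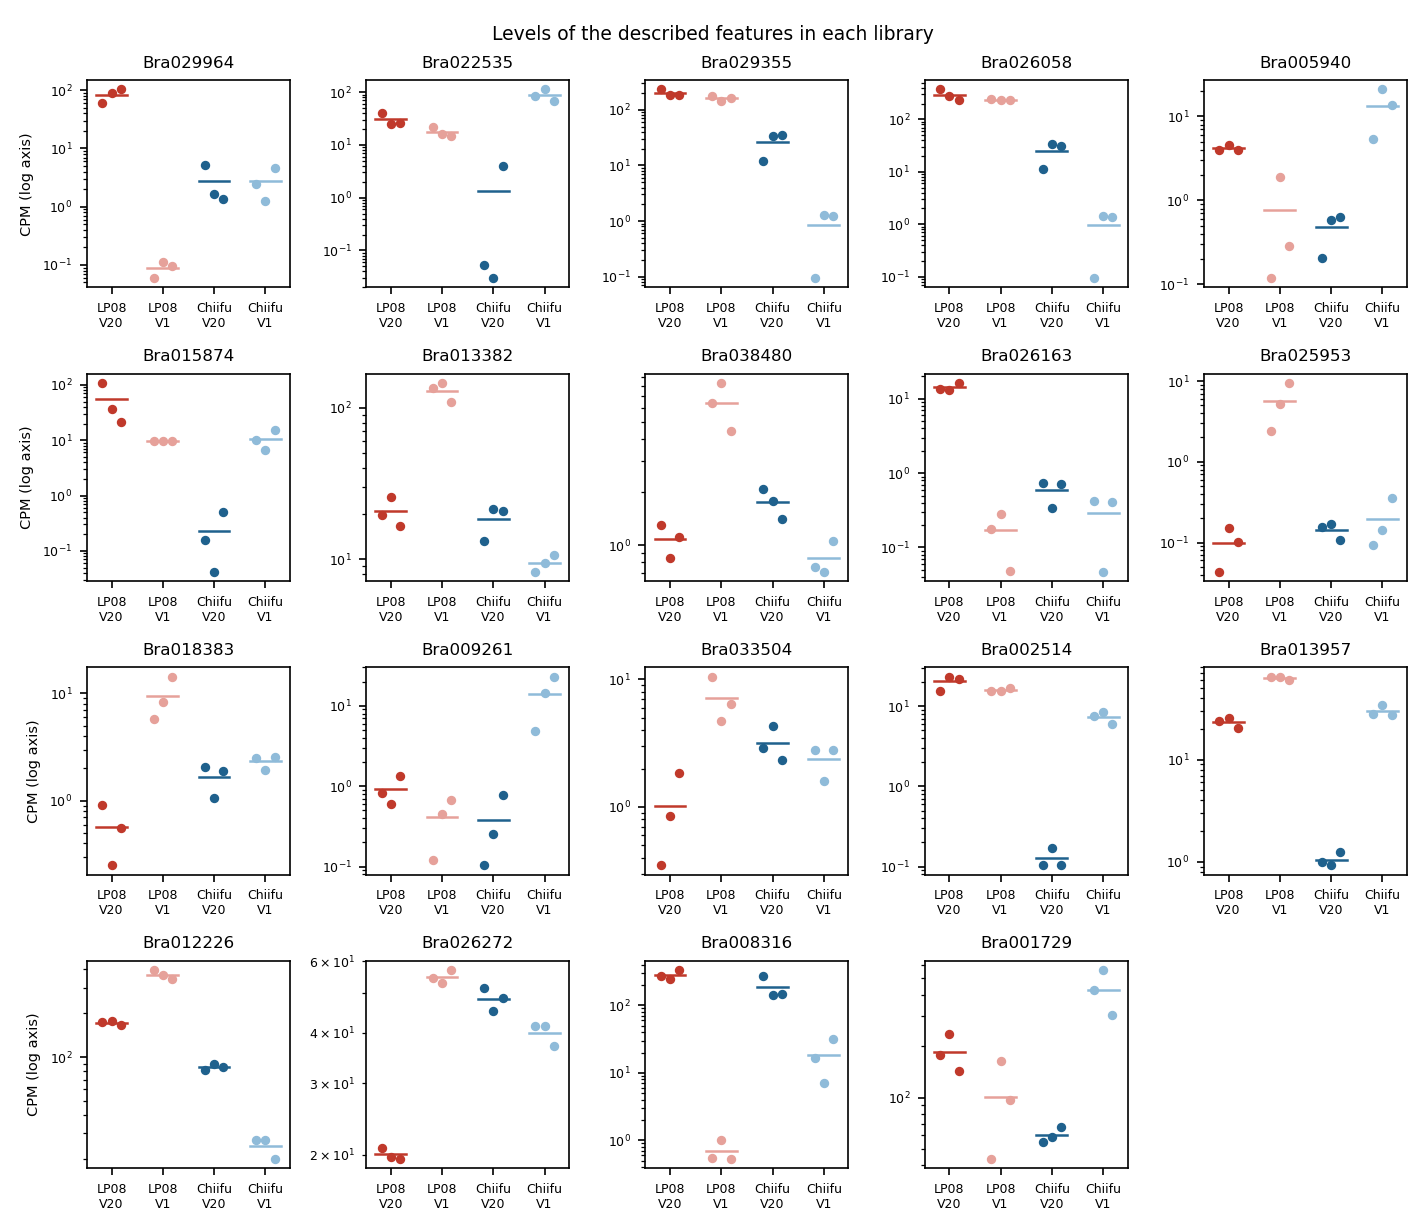
CPM on log axes for the 19 described features, 1 panel each, with 1 point per library and a line at the group mean, in the order LP08 V20, LP08 V1, Chiifu V20, Chiifu V1. Axis ranges differ between panels, and a library with 0 counts is drawn at 0.03 CPM.

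Bra029964 had the largest higher interaction. Its level was 60.3, 89.8 and 103 CPM in LP08 V20 and 0.0597, 0.114 and 0.0964 CPM in LP08 V1, where it rested on 5 counts in all. In Chiifu V20 it was 5.25, 1.64 and 1.34 CPM, and in Chiifu V1 2.41, 1.23 and 4.55 CPM. LP08 was thus below every Chiifu library at V1 and above every one at V20, while the Chiifu groups overlapped. The interaction was 9.82 as a log2 value (SE 1.08, adjusted p 0.000925 in edgeR), and 10.61 without Chiifu V20 replicate 1. At V40 the LP08 libraries held 127, 28.4 and 13.5 CPM and the Chiifu libraries 0.0864, 3.28 and 0.714 CPM. After the return to warmth it had 0 counts in all 3 LP08 libraries, which by a limit of 3 counts over the group allows up to 0.0497 CPM, counting error only. Chiifu NV was uneven, at 0.144, 37.5 and 17.2 CPM.

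Bra026163 followed a like course at a lower level. It stood at 14.4 ± 1.7 CPM in LP08 V20 and 0.171 ± 0.119 CPM in LP08 V1, against 0.591 ± 0.22 CPM in Chiifu V20 and 0.292 ± 0.212 CPM in Chiifu V1 (SD, n = 3 each). Only LP08 V20 lay clear of the other groups. The interaction was 5.39 (SE 0.80, adjusted p 0.00166 in edgeR). Later it was at 2.37 ± 1.19 CPM in LP08 V40 and 0.295 ± 0.145 CPM in Chiifu V40, and at 0 counts in LP08 V40T10.

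The abundant feature Bra008316, chosen after its values were seen, rose in both cultivars from different starting levels. Its libraries held 269, 248 and 331 CPM in LP08 V20 and 0.537, 1.03 and 0.53 CPM in LP08 V1. The Chiifu libraries held 270, 141 and 145 CPM at V20 and 16.8, 6.95 and 31.2 CPM at V1. The cultivars overlapped at V20 and not at V1, where LP08 was lower. The interaction was 5.32 (SE 0.81, adjusted p 0.00452 in edgeR), and 4.70 without Chiifu V1 replicate 3. At V40 both cultivars stayed high, at 219 ± 76.4 CPM for LP08, beside 201 ± 39.5 CPM for Chiifu (SD, n = 3 each). After the return to warmth it was at 0 counts in LP08 and 26.7 ± 3.07 CPM in Chiifu.

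Bra025953 was high in LP08 V1 alone. It held 0.0436, 0.15 and 0.101 CPM in LP08 V20, against 2.39, 5.19 and 9.44 CPM in LP08 V1. The Chiifu libraries lay between 0.106 and 0.169 CPM at V20 and between 0.0945 and 0.354 CPM at V1. The interaction was -5.36 (SE 1.17, adjusted p 0.0127 in edgeR), or -6.05 without Chiifu V1 replicate 3. The 18 libraries of the other treatments held at most 0.502 CPM each, so that LP08 V1 was the single group in the series with a level above 1 CPM. The 6 counts in LP08 V20 make the size of its fall uncertain.

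Bra018383 fell in LP08 and was not called in Chiifu. It had 0.573 ± 0.333 CPM in LP08 V20 and 9.44 ± 4.41 CPM in LP08 V1, against 1.67 ± 0.542 CPM in Chiifu V20 and 2.32 ± 0.334 CPM in Chiifu V1 (SD, n = 3 each). LP08 lay above Chiifu at V1 and below it at V20, without overlap at either time. The interaction was -3.53 (SE 0.59, adjusted p 0.00342 in edgeR). Before the cold its level was 65.4 ± 8.07 CPM for LP08 and 93.9 ± 52.3 CPM for Chiifu. At V40 it was 0.489 ± 0.197 CPM for LP08 and 1.74 ± 0.482 CPM for Chiifu, and after warmth 18.9 ± 2.33 and 7.32 ± 1.07 CPM.

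Bra033504 turned round in the same way. Its level was 0.349, 0.852 and 1.86 CPM in LP08 V20 and 10.5, 4.73 and 6.36 CPM in LP08 V1. In Chiifu the range was 2.33 to 4.34 CPM at V20 and 1.61 to 2.79 CPM at V1, and these groups overlapped. The interaction was -3.25 (SE 0.66, adjusted p 0.0107 in edgeR), and -4.01 without LP08 V20 replicate 3.

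Other features were called from V1 to V20 in Chiifu and not in LP08. Bra022535 held 40.5, 25 and 26.4 CPM in LP08 V20 and 21.6, 16 and 14.6 CPM in LP08 V1. In Chiifu V20 it held 0.0519, 0 and 4.03 CPM, and in Chiifu V1 85, 112 and 67.6 CPM. Nearly all of its counts in Chiifu V20 came from replicate 3, and the interaction of 6.68 (SE 1.11, adjusted p 0.00763 in edgeR) was 12.37 without that library. In Chiifu V40 the libraries were uneven in the same way, at 0.13, 0 and 11.2 CPM, and after warmth they stood at 846 ± 163 CPM, against 0.422 ± 0.243 CPM in LP08 (SD, n = 3 each).

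Bra009261 fell in Chiifu from a level that LP08 did not have at V1. It stood at 0.93 ± 0.388 CPM in LP08 V20 and 0.417 ± 0.28 CPM in LP08 V1, against 0.378 ± 0.354 CPM in Chiifu V20 and 14.1 ± 9.08 CPM in Chiifu V1 (SD, n = 3 each). The interaction was 6.18 (SE 1.12, adjusted p 0.00763 in edgeR), and 7.29 without Chiifu V20 replicate 3. Chiifu V1 alone lay clear of the other groups.

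Bra002514, chosen after its values were seen for its small p, was not called in LP08 and was under 1 CPM in Chiifu except at V1. Its libraries held 15.7, 23.4 and 22.2 CPM in LP08 V20 and 15.7, 15.5 and 16.9 CPM in LP08 V1. In Chiifu V20 they held 0.104, 0.169 and 0.106 CPM, 9 counts in all, and in Chiifu V1 7.61, 8.61 and 5.97 CPM. The interaction was 6.15 (SE 0.34, adjusted p 1.13e-06 in edgeR). The other Chiifu groups lay at 0.271 ± 0.199 CPM (NV), 0.333 ± 0.305 CPM (V40) and 0.659 ± 0.077 CPM (V40T10), so the level at V1 was the exception in Chiifu. LP08 held 11 ± 2.24, 14.3 ± 2.63 and 10.6 ± 0.677 CPM at those treatments (SD, n = 3 each).

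Bra013957, chosen likewise, fell in both cultivars and further in Chiifu. It was at 23.3 ± 2.51 CPM in LP08 V20 and 62.7 ± 2.83 CPM in LP08 V1, against 1.05 ± 0.165 CPM in Chiifu V20 and 30 ± 4.06 CPM in Chiifu V1 (SD, n = 3 each). The fall was 2.69-fold in LP08 and 28.1-fold in Chiifu. The interaction was 3.38 (SE 0.19, adjusted p 1.13e-06 in edgeR). At V40 it held 16.5 ± 3.69 CPM for LP08 and 1.26 ± 0.34 CPM for Chiifu, and the NV to V40 interaction of the other libraries was 2.52 (SE 0.47, adjusted p 0.0123 in edgeR).

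Bra029355 and Bra026058 ranked highest among the lower interactions in mean log2 CPM with the prior count, and they moved alike. Bra029355 held 232, 185 and 186 CPM in LP08 V20 and 174, 146 and 166 CPM in LP08 V1, against 12.1, 33.2 and 35 CPM in Chiifu V20 and 0.0945, 1.28 and 1.21 CPM in Chiifu V1. Bra026058 held 373, 274 and 232 CPM in LP08 V20 and 249, 233 and 235 CPM in LP08 V1, against 11.2, 33.3 and 30.5 CPM in Chiifu V20 and 0.0945, 1.47 and 1.37 CPM in Chiifu V1. For both, LP08 was high at both times, Chiifu rose, and replicate 1 was the lowest Chiifu library at each time. Their interactions were -4.65 (SE 0.70) and -4.39 (SE 0.74), with edgeR adjusted p-values of 0.0039 and 0.00684. In the NV to V40 interaction of the other libraries they gave -3.69 and -4.31, with edgeR adjusted p-values of 0.0144 and 0.00118. Whether the reads of these features are shared with near-identical copies is not known here.

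The next 4 features moved in opposite directions in the cultivars. Bra015874 held 108, 36.2 and 21.3 CPM in LP08 V20 and 9.61, 9.87 and 9.73 CPM in LP08 V1, against 0.156, 0.0421 and 0.495 CPM in Chiifu V20 and 9.92, 6.52 and 15.5 CPM in Chiifu V1. The cultivars overlapped at V1 and were wide apart at V20. The interaction was 7.88 (SE 1.10, adjusted p 0.00332 in edgeR), and 6.94 without LP08 V20 replicate 1 and 9.24 without Chiifu V20 replicate 3. At V40 it stood at 134 ± 111 CPM for LP08, against 0.257 ± 0.334 CPM for Chiifu (SD, n = 3 each).

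Bra005940 rose in LP08 and fell in Chiifu. It held 3.97, 4.51 and 4.02 CPM in LP08 V20 and 0.119, 1.88 and 0.289 CPM in LP08 V1, against 0.208, 0.59 and 0.637 CPM in Chiifu V20 and 5.39, 20.9 and 13.6 CPM in Chiifu V1. The interaction of 7.18 (SE 1.04, adjusted p 0.00303 in edgeR) was 8.96 without LP08 V1 replicate 2. In other treatments it varied widely between libraries of a group, from 0.209 to 13.7 CPM in LP08 V40 and from 1.97 to 97.2 CPM in Chiifu NV.

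Bra013382 fell in LP08 and rose in Chiifu. LP08 held 19.7, 26 and 16.7 CPM at V20 and 135, 146 and 109 CPM at V1. Chiifu held 13.2, 21.6 and 20.9 CPM at V20 and 8.31, 9.46 and 10.7 CPM at V1. The cultivars overlapped at V20 and lay far apart at V1. LP08 V1 was the only group of the 10 in the series above 40 CPM, since LP08 held 23.8 ± 2.8 CPM at NV and at most 36.7 CPM in any library of V40 and V40T10. The interaction was -3.62 (SE 0.29, adjusted p 4.92e-05 in edgeR). Bra038480 moved alike at a lower level, with 1.09 ± 0.229 CPM in LP08 V20 and 6.36 ± 1.92 CPM in LP08 V1, against 1.75 ± 0.332 CPM in Chiifu V20 and 0.842 ± 0.192 CPM in Chiifu V1 (SD, n = 3 each). Its interaction was -3.58 (SE 0.41, adjusted p 0.000277 in edgeR).

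The last 3 features were chosen after their values were seen. Bra012226, an abundant one, held 172 ± 6.16 CPM in LP08 V20 and 368 ± 25.2 CPM in LP08 V1, against 85.2 ± 4.42 CPM in Chiifu V20 and 24.6 ± 4.03 CPM in Chiifu V1 (SD, n = 3 each). It fell 2.14-fold in LP08 and rose 3.46-fold in Chiifu, so that LP08 was 2.02-fold above Chiifu at V20, against 15-fold at V1. The interaction was -2.89 (SE 0.16, adjusted p 1.13e-06 in edgeR), and at V40 it held 278 ± 41.9 CPM for LP08 and 43.5 ± 8.74 CPM for Chiifu.

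Bra026272, chosen for its small p, had close replicates. It held 20.9, 19.8 and 19.6 CPM in LP08 V20 and 54.5, 52.9 and 57 CPM in LP08 V1, against 51.5, 45.1 and 48.6 CPM in Chiifu V20 and 41.5, 41.5 and 37.1 CPM in Chiifu V1. The 4 groups did not overlap within either cultivar or at either time. The interaction was -1.72 (SE 0.12, adjusted p 5.48e-06 in edgeR). Its NV to V40 interaction was -0.19 (SE 0.57), with an edgeR adjusted p of 0.918.

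Bra001729 was abundant and uneven. It held 178, 234 and 143 CPM in LP08 V20 and 43.7, 163 and 97.3 CPM in LP08 V1, which overlapped, against 54.8, 58.5 and 67.5 CPM in Chiifu V20 and 428, 557 and 303 CPM in Chiifu V1. The interaction was 3.70 (SE 0.59, adjusted p 0.00521 in edgeR). Of the 19 features, 18 could be tested in the NV to V40 interaction of the other libraries. All 18 had the sign of the V20 to V1 interaction there, and 8 of them were called. Over all genes tested in both fits 53.1% were positive and 46.9% negative, with 2.56% called higher and 1.49% called lower. The 18 are extremes of the first interaction, so they do not stand for its genes at large. The values nearest 0 were 0.23 for Bra002514 and -0.19 for Bra026272, with edgeR adjusted p-values of 0.931 and 0.918.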

How the data were processed

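RNA was sequenced from whole plants, with libraries made with a stranded mRNA kit, per the labels' protocols. FastQC, TopHat2, HTSeq and edgeR are listed, with no version, per the submitters' processing notes. No label or header names the genome build, annotation or strand setting, so overlapping, antisense and near-identical genes are counted with uncertainty. For each library the authors deposited a raw read count for 42186 genes, plus 5 summary rows that were removed before any fit. In the 12 libraries, 7.06 to 10.5% of reads fell outside genes. No 2 libraries of a group were duplicates (chi-square per degree of freedom 7.01 to 26.5 in these 12, and 55 to 127 in Chiifu NV).

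Counts were fitted with edgeR 4.0.16 in R 4.3.3 (quasi-likelihood F test, robust, TMM scaling, filterByExpr, 1 mean per group). Comparisons among the V1 and V20 groups used the 12 libraries alone. The NV to V40 and the V20 to V40 interactions were each fitted in the same way on the libraries of their own groups, with their own filter and scaling. P-values were adjusted by Benjamini-Hochberg over all genes of a comparison and called below 0.05. Standard errors come from the F statistic. CPM are counts scaled to the TMM-adjusted library size, from the 12 libraries for V1 and V20 and from all 30 for other treatments. The median cultivar differences by treatment used the scaling of all 30 libraries throughout, V1 and V20 included. Log2 CPM used a prior count of 2. Limits at 0 counts use 3 counts over the unadjusted library totals of the group and cover counting error only. Same-numbered libraries deviated from their group means with correlations of -0.32 to 0.31 over 18 pairs, 4 of them above 0.1. The highest were 0.31 and 0.25, between Chiifu V20 and Chiifu V1 in replicates 3 and 1. With 3 libraries per group these values cannot decide whether the numbers pair the samples, and the main fit did not pair them. Alternatives were all 30 libraries, DESeq2 size factors, no filter, the DESeq2 1.42.0 Wald test, limma 3.58.1 voom with group weights, a replicate block and leaving out each library.

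The comparison and lists were chosen with earlier results of these data known. A rule ranked genes with 5 CPM or more in a group, called without any 1 library, by the interaction in mean log2 CPM and took 2 features per direction overall and in each of 4 classes. The 19 gene lists of 402 symbols could not be matched to IDs, so none was tested.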

Additional observations from a re-analysis of the deposited data

Results flagged for a closer look

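A tested difference between the cultivars' shifts from V1 to V20 brought each of the following here. It was found for 2567 genes in all. Among the features described, the interaction was higher, on the log2 scale, by 9.82 for Bra029964, 6.68 for Bra022535, 7.18 for Bra005940 and 7.88 for Bra015874. It was 5.39 for Bra026163, 6.18 for Bra009261, 6.15 for Bra002514 and 3.38 for Bra013957. For Bra008316 it was 5.32 and for Bra001729 3.70. Lower interactions were -4.65 for Bra029355, -4.39 for Bra026058, -3.62 for Bra013382 and -3.58 for Bra038480. They were -5.36 for Bra025953, -3.53 for Bra018383 and -3.25 for Bra033504. For Bra012226 and Bra026272 they were -2.89 and -1.72. All these features were chosen for this difference.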

How the results depend on the processing

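No gene called for the interaction changed sign under any alternative. The 19 described features kept direction and call in all 228 values without 1 library and all 114 under other settings. For the 13 features chosen by rule, staying called without any 1 library was a condition of the choice. Their values without 1 library are therefore no further evidence. With all 30 libraries in 1 fit the interaction called 1365 genes (585 higher), 47.8% of the 2567 among them. By class, 163 moved in opposite directions, 515 in LP08 alone, 473 in Chiifu alone, and 125 and 87 the same way but further in LP08 or in Chiifu. The cultivar difference turned round for 176, was called at V20 alone for 401 and at V1 alone for 509, and was wider at V20 for 107 and narrower for 171. The NV to V40 interaction called 3500 genes there and that of V20 to V40 42. The DESeq2 Wald test called 1800 lower genes. A replicate block called 2219 genes, or 17 for V20 to V40. Of the 18 pairs of same-numbered libraries 4 correlated above 0.1, which cannot decide whether the numbers pair the samples. The causes were not tested.

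Leaving out 1 library at a time gave 1576 to 2482 interaction genes (818 to 1406 higher, 741 to 1129 lower, 984 to 1438 at 2-fold or more). Opposite directions held 214 to 330, LP08 alone 537 to 775, Chiifu alone 509 to 871, further in LP08 161 to 319 and further in Chiifu 112 to 220. The difference turned round for 218 to 339, and stood at V20 alone for 423 to 736, at V1 alone for 545 to 812, wider for 174 to 274 and narrower for 210 to 363. The changes from V1 to V20 gave 10593 to 12504 genes in LP08 and 10435 to 12789 in Chiifu, and the cultivar difference 12405 to 14733 at V20 and 12750 to 14489 at V1. The V20 to V40 interaction gave 10 to 210 and that of NV to V40 467 to 2552, with matching signs for 866 to 1002 higher and 710 to 842 lower genes. The gene lists were not run for want of names, and small changes of genes near the filter are beyond this depth.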

Other observations

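Rows beginning with ENSRNA, were few after the filter, with 65 tested. The interaction was called for 8 of them, 7 lower and 1 higher, where 9.51% of all genes tested were called, 4.25% lower and 5.26% higher. One of them, ENSRNA049454690, picked with its value known, had an interaction of -2.67 as a log2 value. LP08 V1 replicate 2, with 0.466% of its counts on such rows against 0.12 and 0.109% in the other LP08 V1 libraries, held the most such counts of the 12 libraries, and its part in these calls was not tested.

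For 15 interaction genes 1 of the 4 groups held at most 3 counts in its 3 libraries together while another reached 5 CPM. The near-absent group was Chiifu V1 for 6 of them, Chiifu V20 for 4, LP08 V1 for 3 and LP08 V20 for 2. The same count was not made over all genes tested, so neither the 15 nor this split can be set against a background.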
